A study of Bos taurus with 47 samples.

Results

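Bovine blastocysts made by somatic cell nuclear transfer (scNT) were compared with blastocysts made by in vitro fertilization (IVF), from the large RNA fraction of 8 libraries. Of the 20526 Ensembl gene identifiers in the expression table, the 12607 with a normalized count of 10 or more in at least 4 of these 8 libraries were compared. The remaining 7919 were not tested, and 518 of them were at 0 in all 8 libraries. The files give identifiers without gene names, and no table used here pairs them, so genes are described by their levels across the other groups and no function is given.

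Each library came from a pool of 20 embryos collected on day 8, with 4 libraries of each kind. The labels do not agree on the number of pools per stage, so whether the 4 libraries are 4 separate pools is not settled. They are called pools below. IVF embryos came from matured oocytes and 1 straw of frozen semen from a Holstein bull, and were cultured on a layer of bovine cumulus cells in SOFaa medium with 3% fetal bovine serum (FBS). For scNT embryos the chromosomes of matured oocytes were removed and 1 fibroblast was fused to each. The fibroblasts were grown from an ear biopsy of a Brahma Spanish bull cross, used at passages 4 to 5, and kept in 0.5% FBS for 24 h beforehand. The scNT blastocysts thus share the genotype of 1 male donor, while the sex of the IVF embryos is not given. How the scNT embryos were activated and cultured is not described in the sources used here. Donor genotype, breed, sex and any difference in culture cannot be told apart from the way the embryos were made. Nothing in the labels ties the pools to separate sessions or animals, and a p-value here reflects pool-to-pool spread alone, which may be technical. Donor fibroblasts, oocytes, earlier embryos of both kinds and cells derived from blastocysts of both kinds were sequenced in the same series, 47 libraries in 12 groups.

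A blastocyst is the first embryonic stage with separated lineages: an outer trophectoderm that will form placenta, and an inner cell mass that will form the fetus and yolk sac. Early bovine development runs on RNA stored in the oocyte, which is degraded as the embryo's own genome is switched on before the morula stage. In nuclear transfer the genome that must be switched on comes from a differentiated cell, and the oocyte cytoplasm has to reset it, which is known to be incomplete in many cloned embryos. The usual markers of trophectoderm, inner cell mass, fibroblasts or cumulus cells could not be checked here, because 0 of the 20526 identifiers matched a named gene. In pooled embryos a change in the share of a cell type and a change in RNA per cell cannot be told apart.

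Transcript levels differed between scNT and IVF blastocysts for 750 of 12607 genes (5.95% of genes tested), 319 higher (2.53%) and 431 lower (3.42%) in scNT (limma on log2(normalized count + 1), Benjamini-Hochberg adjusted p below 0.05, n = 4 and 4). A normalized count is a read count divided by 1 scaling factor per library. The higher genes were up by a median of 0.79 on the log2(value + 1) scale, from 0.38 to 6.88. The lower genes had a median difference of -1.08, from -5.49 to -0.40. Most of the differences were small: 397 of the 750 were under 2-fold. A difference of at least 2-fold was called for 119 higher genes (0.944%) and 234 lower genes (1.86%), one of at least 4-fold for 37 (0.293%) and 65 (0.516%), and one of at least 8-fold for 15 (0.119%) and 18 (0.143%). Across all genes tested the median difference was -0.0081 and the median absolute difference was 0.23. The 8 values did not overlap between the groups for 727 of the 750 called genes, beside 1773 of all genes tested (14.1%), 762 with scNT higher (6.04%) and 1011 with scNT lower (8.02%).

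**Figure D1:**
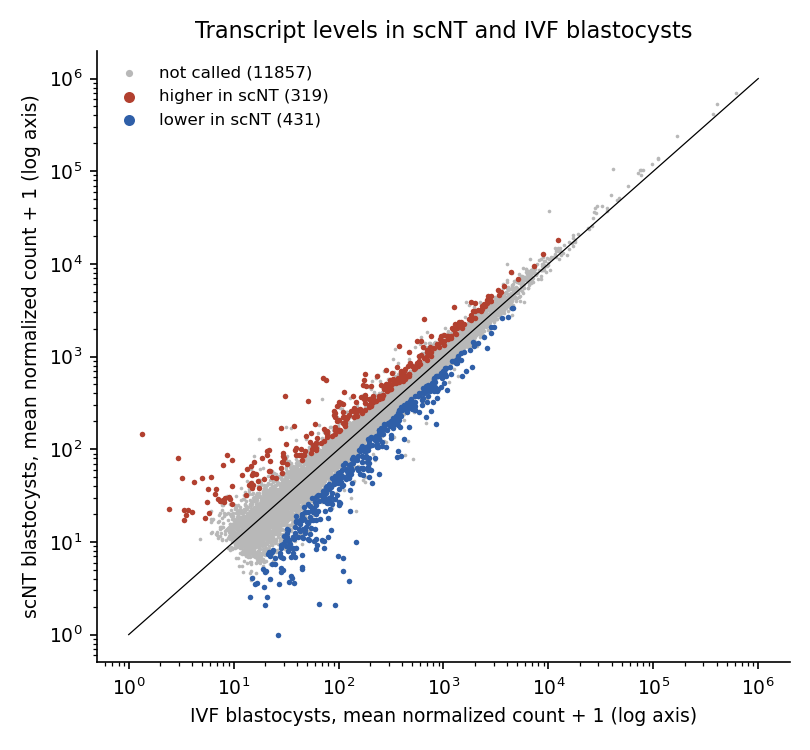
Mean normalized count + 1 in the 4 IVF blastocyst pools (x axis, log scale) against the 4 scNT pools (y axis, log scale), 1 point per gene tested, with the line of equality; red, 319 genes higher in scNT, blue, 431 lower, grey, 11857 not called. Most coloured points lie close to the line, and the few far from it are genes at low level in one kind of embryo.

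The number and direction of these calls rested on the scaling and on single pools. With each library scaled to the same total, 175 genes were higher and 929 lower, and the median of all genes moved to -0.16. All 431 lower genes were called lower under that scaling, and 175 of the 319 higher genes were called higher. With the 10 most abundant genes left out of the totals, 211 were higher and 672 lower. The total called was 311 without IVF pool 2, 367 without IVF pool 3, and 386, 443 and 373 without scNT pools 1, 3 and 4. Without IVF pool 4 the split turned to 461 higher and 384 lower.

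The higher genes were the more abundant ones. Their mean level over the 8 libraries had a median of 280.0 normalized counts, against 118 for the lower genes and 184 for all genes tested. Among the 1740 genes with a mean of 1000 or more, 70 were higher (4.02%) and 28 lower (1.61%). Between 30 and 100 the order was the other way, with 55 of 2604 higher (2.11%) and 126 lower (4.84%). The 319 higher genes together made up 2.88% of the normalized total in scNT and 2.01% in IVF blastocysts. The 431 lower genes made up 0.917% and 1.72%.

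Some of the called genes were close to absent in one kind of blastocyst. Of the lower genes, 15 had at most 3 reads in every scNT pool, and 1 had no read in any of them. Of the higher genes, 7 had at most 3 reads in every IVF pool. Every tested gene of this kind was called, since the filter admits it only through the group where it is present, so these counts say nothing about how common such genes are. In a related count, 16 higher genes reached 10 in all 4 scNT pools and in no IVF pool, out of 25 tested genes with that pattern. The reverse pattern was held by 73 genes, of which 38 were called lower. The filter admits these genes too only through the group where they are high, so these counts carry the same limit.

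The largest differences are given by identifier, 2 in each direction, among 611 called genes whose 8 values did not overlap and whose mean in the higher group was at least 50. The separation of the blastocyst pools described for these genes thus follows from the choice and is not a result. ENSBTAG00000039787 had normalized counts of 165.7, 120.8, 142.5 and 149.9 in the 4 scNT blastocyst pools and of 0, 0, 1.3 and 0 in the IVF pools. All 4 scNT pools were thus far above every IVF pool. It rested on 389 reads in scNT and 1 read in IVF, a depth-corrected ratio of 340 with a 95% interval for counting error from 60.6 to 13454. The log2 difference was 6.88 (SE 0.41, limma adjusted p = 7.41e-06). It was at 0 in all fibroblast, oocyte, IVF 2-cell, scNT 2-cell and scNT 8-cell libraries, and appeared in scNT embryos at the morula stage with 60.2, 88.4 and 43.8, while the 4 IVF morula pools ranged from 0 to 1.7. In the cells derived from scNT blastocysts it was 154.6, 117.6, 183.3 and 174.5, and in those from IVF blastocysts 23.6, 0.9, 1.1 and 0. No read of it was thus found in either source cell, and every scNT library from the morula on held it.

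ENSBTAG00000007296 differed in that the donor fibroblasts held it too. It had 94.5, 57.3, 62.8 and 100.4 normalized counts in scNT blastocysts and 1.9, 2.0, 0 and 3.8 in IVF blastocysts. No scNT pool came near an IVF pool. From 214 and 4 reads the ratio was 46.7, with a counting interval from 18.0 to 173, and the log2 difference was 4.93 (SE 0.50, limma adjusted p = 0.000244). Fibroblast libraries 1 to 4 read 118.8, 88.3, 9.0 and 103.8, so 1 of the 4 was much lower than the rest. Oocytes had 0.125 ± 0.25 (SD, n = 4), scNT 2-cell embryos 1.47 ± 2.45 and scNT 8-cell embryos 1.65 ± 1.24. The level was thus low after transfer and stood at 40.9 ± 6.71 (n = 3) in scNT morulae and 87.4 ± 15.0 (n = 4) in scNT derived cells, whereas IVF morulae had 1.88 ± 3.75 and IVF derived cells 0.575 ± 0.665.

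Both genes with the largest decrease were oocyte transcripts that were at 0 in every fibroblast library. ENSBTAG00000048049 had 0, 1.5, 1.5 and 1.3 normalized counts in scNT blastocysts and 111.6, 114.3, 88.8 and 48.8 in IVF blastocysts. The highest scNT pool lay far under the lowest IVF pool. From 3 and 212 reads it was 80.9 times higher in IVF (counting interval 27.3 to 395), a log2 difference of -5.49 (SE 0.46, limma adjusted p = 5.84e-05). Oocytes had 527 ± 160 (SD, n = 4), and the mean was lower at each later IVF stage, with 354 ± 177 in 2-cell embryos, 210 ± 91.9 in 8-cell embryos, 141 ± 31.7 in morulae and 90.9 ± 30.3 in blastocysts. In scNT embryos it was 322 ± 64.3 and 295 ± 79.0 at the 2-cell and 8-cell stages, which overlapped IVF, and then 34.8, 68.5 and 4.5 in the morula pools, all under the lowest IVF morula pool at 98.4.

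ENSBTAG00000001219 followed the same course. It had 0, 0, 4.6 and 0 normalized counts in scNT blastocysts and 63.2, 89.8, 55.8 and 48.8 in IVF blastocysts, with no overlap, which the choice required. The ratio of IVF to scNT was 56.5 (3 and 148 reads, counting interval 19.0 to 277) and the log2 difference -5.37 (SE 0.60, limma adjusted p = 0.000522). Its level was 1903 ± 636 in oocytes, and at the 8-cell stage 1000 ± 358 in scNT and 648 ± 286 in IVF (SD, n = 4 in every group). In morulae it was 74.3, 183.1 and 24.2 in scNT and 432.0, 390.9, 360.3 and 284.6 in IVF pools. In the cells derived from either kind of blastocyst both oocyte transcripts were at or near 0, no higher than 2.8.

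**Figure D2:**
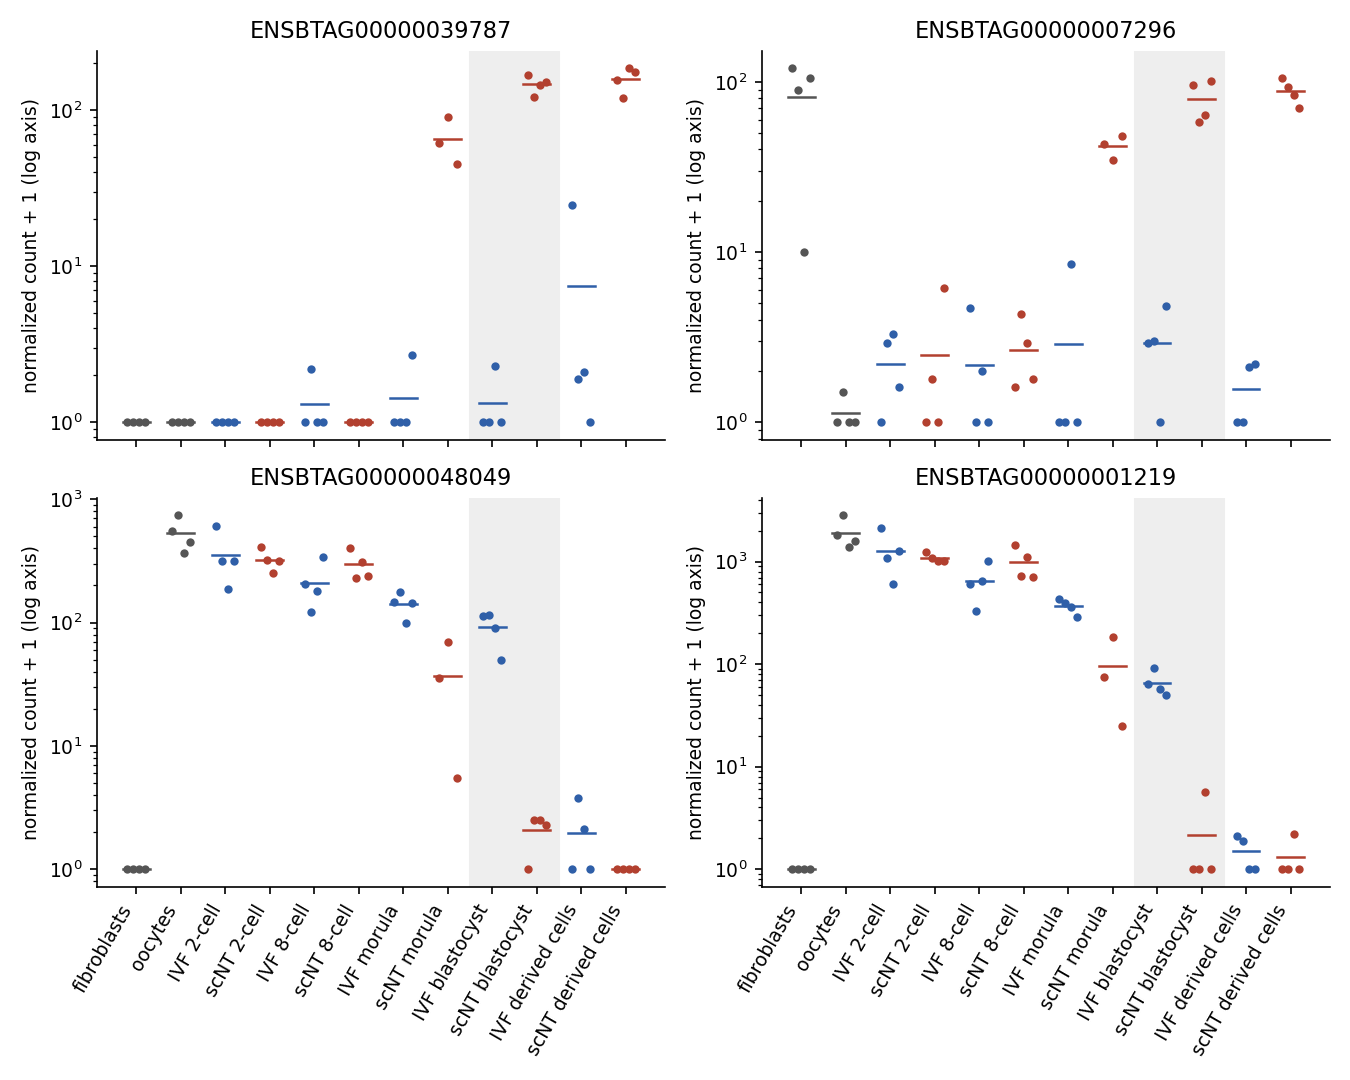
Normalized count + 1 (y axis, log scale) of the 4 named genes in each library of the 12 groups, 1 point per pool or culture and a bar at the group mean; blue, IVF, red, scNT, grey, source cells, with the blastocysts shaded. The upper 2 genes stand high in scNT libraries from the morula on, and the lower 2 start high in oocytes and reach the floor in scNT blastocysts while IVF blastocysts still read 48.8 or more.

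To see where the transcripts of scNT blastocysts stood relative to the 2 source cells, the tested genes were sorted by whether the mean in the donor fibroblasts and in oocytes reached 10. This sorting uses no blastocyst library. Of 763 genes present in oocytes only, 54 were lower in scNT blastocysts (7.08%) and 22 higher (2.88%). Of 1033 genes present in fibroblasts only, 38 were lower (3.68%) and 49 higher (4.74%). The 850 genes present in neither gave 42 lower (4.94%) and 43 higher (5.06%), and the 9961 present in both gave 297 (2.98%) and 205 (2.06%). Genes of oocytes alone, of fibroblasts alone and of neither were thus called in each direction more often than all genes (3.42% lower, 2.53% higher). The largest share called lower was the 7.08% of oocyte-only genes. The largest share called higher was the 5.06% of genes in neither, so a raised share of higher calls was not particular to fibroblast-only genes. No share was tested. The 54 became 28, 29, 27 and 28 without IVF pools 2 and 3 and scNT pools 1 and 4, and 84 with equal library totals. The 49 became 31 without each of IVF pool 2, scNT pool 1 and scNT pool 4, and with equal library totals fibroblast-only genes gave 37 higher and 56 lower. The other counts moved too. With 1 pool left out, genes in both gave 66 to 348 higher and 115 to 330 lower, genes in neither 20 to 46 and 22 to 52, and oocyte-only genes 6 to 22 higher. IVF pool 2 gave the lowest of these values, except that scNT pool 4 gave the 20 and scNT pool 1 the 6. With equal library totals genes in both gave 91 higher and 723 lower.

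The tested genes were also sorted by the group with the highest mean among fibroblasts, oocytes and the other IVF stages. Genes that peak in IVF 2-cell embryos were seldom higher in scNT blastocysts, with 9 of 1363 (0.660%, beside 2.53% of all genes) against 45 lower (3.30%, beside 3.42%). Those that peak in IVF 8-cell embryos gave 11 of 1217 higher (0.904%, beside 2.53%) and 43 lower (3.53%, beside 3.42%). Genes that peak in the cells derived from IVF blastocysts gave 109 of 2796 higher (3.90%) and 74 lower (2.65%), the one class of the 6 with more higher than lower calls, which turned to 61 higher and 154 lower with equal library totals. Without a single pool its counts also moved: 35 higher and 37 lower without IVF pool 2, 48 and 48 without IVF pool 3, 41 and 55 without scNT pool 4, 55 and 51 without scNT pool 1, and 56 and 50 without scNT pool 3. Genes that peak in fibroblasts gave 103 of 2999 higher (3.43%, beside 2.53% of all genes) and 117 lower (3.90%, beside 3.42%). Those of oocytes gave 38 and 76 of 2266 (1.68% and 3.35%, beside 2.53% and 3.42%). The raised share of lower calls among oocyte-only genes was thus not seen among genes that peak in oocytes. These class counts moved with single pools, the 9 lying between 3 without scNT pool 1 and 16 without IVF pool 4, and the 11 between 5 and 14 under the same omissions.

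**Figure D3:**
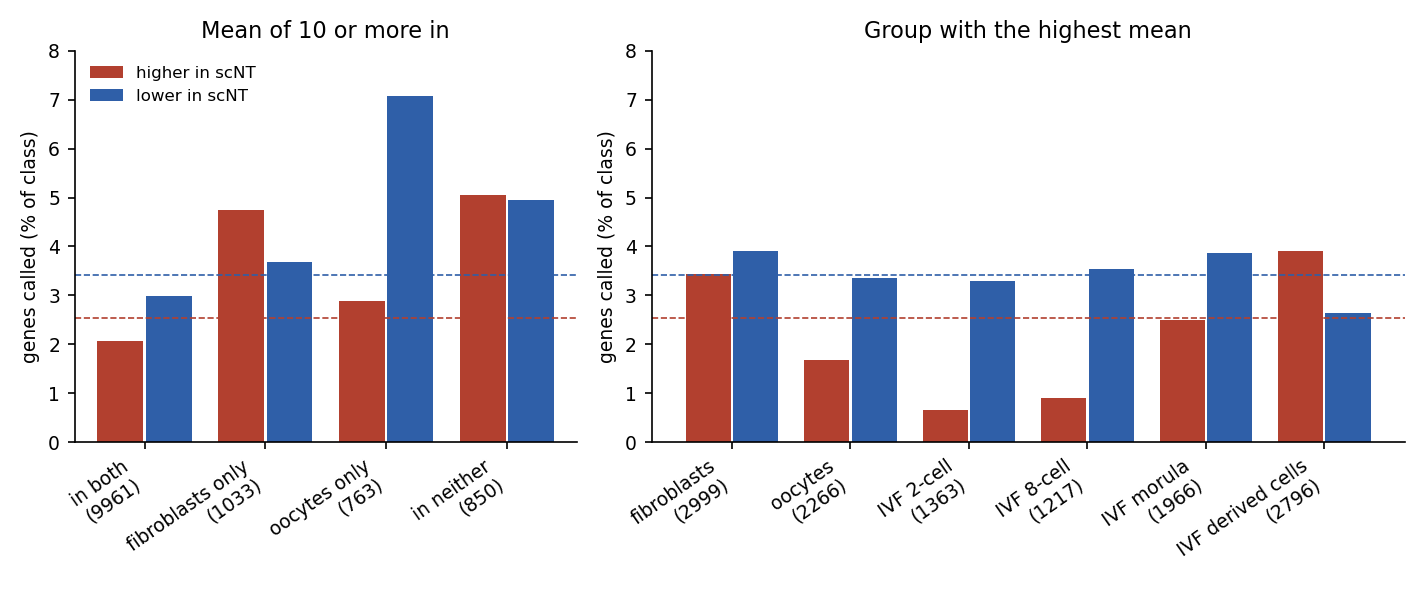
Genes called higher (red) and lower (blue) in scNT blastocysts as a percentage of each class (y axis), with the number tested under each class; left, by a mean of 10 or more in fibroblasts and oocytes, right, by the group of highest mean, dashed lines at the 2.53% and 3.42% of all genes. The tallest bar is the 7.08% of oocyte-only genes called lower.

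Narrower sets were then taken from the other libraries. Oocyte-high genes, at least 32-fold above fibroblasts, numbered 938, of which 547 passed the filter in blastocysts. Their median log2 difference was -0.35 beside -0.0081 for all genes, with 60 called lower (10.97%, beside 3.42% of all genes) and 12 higher (2.19%, beside 2.53%). The mean log2 level of these 547 genes was 5.59, 5.98, 6.06 and 5.95 in scNT pools 1 to 4 and 6.22, 6.26, 6.53 and 6.34 in IVF pools 1 to 4, without overlap. The median lay between -0.42 and -0.25 with any 1 of the 8 pools left out, and was -0.20 with the set widened to 8-fold. All tested genes at low level also leaned lower. With a mean under 30 over the 8 libraries their median difference was -0.22, with 3.69% called lower and 1.55% higher. From 30 to 100 it was -0.068, with 4.84% lower and 2.11% higher. The part of level in the oocyte-high difference was not tested.

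Fibroblast-high genes, at least 32-fold above oocytes, were called in both directions more often than all genes. Of 546, 380 passed the filter, 21 were called higher (5.53%, beside 2.53%) and 29 lower (7.63%, beside 3.42%), and the median was -0.086. This differs from the fibroblast-only genes above, among which more were higher than lower. Their mean log2 level was 6.91, 6.60, 6.90 and 6.77 in the scNT pools and 6.95, 6.95, 7.10 and 6.90 in the IVF pools. The groups overlapped through scNT pool 1 alone, at 6.909 beside 6.904 in IVF pool 4. The median was -0.22 with equal library totals and 0.0067 with the set widened to 8-fold.

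Genes were also followed along the passage from morula to derived cells, using IVF libraries of those groups alone. Of 2216 falling genes, at least 4-fold lower in IVF derived cells than in IVF morulae, 1646 were tested in blastocysts, 132 were lower in scNT (8.02%, beside 3.42% of all genes) and 33 higher (2.00%, beside 2.53%), with a median of -0.24 that was -0.13 with the set widened to 2-fold. Their mean log2 level ranged from 5.90 to 6.45 in scNT and from 6.29 to 6.69 in IVF pools, which overlapped. Of 1886 rising genes, 1338 were tested, 53 were higher (3.96%, beside 2.53%) and 55 lower (4.11%, beside 3.42%), and the median of 0.054 turned to -0.089 with equal library totals and to -0.033 without IVF pool 4. The oocyte-high and falling sets share 387 genes. None of these sets was matched for level.

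On a line from the IVF morula mean at 0 to the IVF derived cell mean at 1, over 13691 genes, scNT blastocysts stood at 0.451, 0.359, 0.374 and 0.428 and IVF blastocysts at 0.403, 0.363, 0.329 and 0.313. The groups overlapped, and both stood between the stages. The scNT morulae stood between 0.0800 and 0.105. Across genes, which are not independent replicates, the blastocyst difference had a Pearson correlation of 0.22 (Spearman 0.20, 12130 genes) with the IVF change from morula to derived cells, and of 0.14 (Spearman 0.14, 11388 genes) with the difference between fibroblasts and oocytes.

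**Figure D4:**
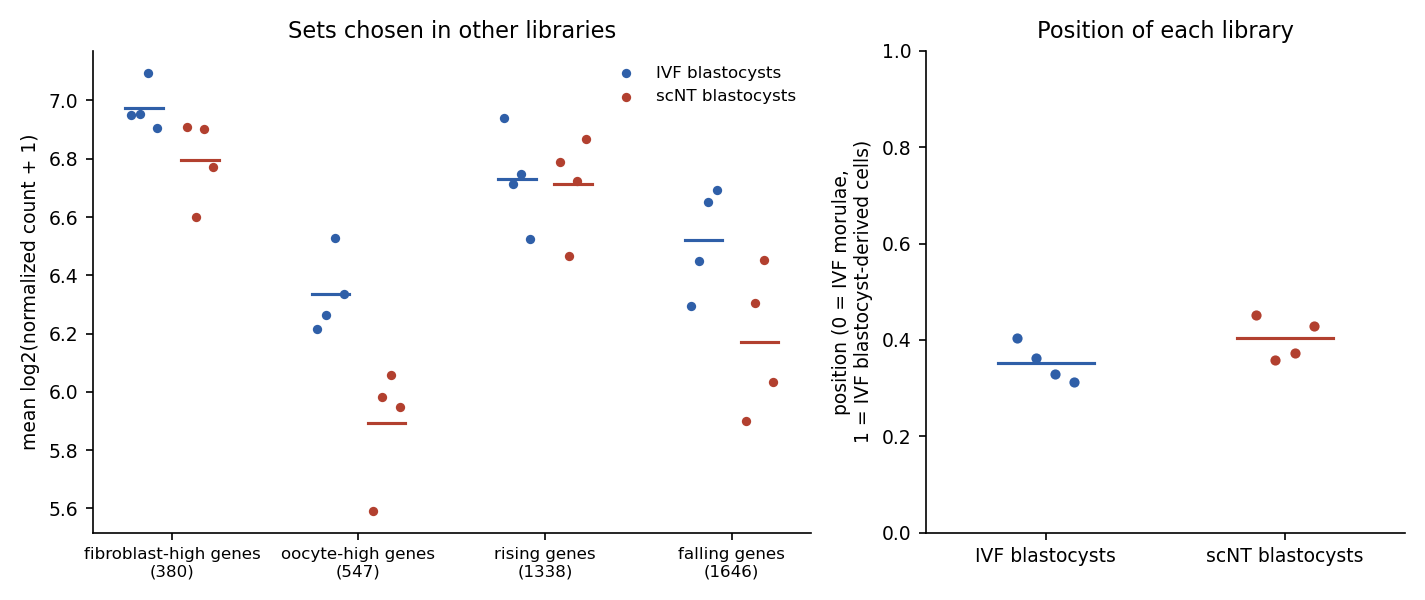
Left, mean log2(normalized count + 1) over each set chosen in other libraries (number of genes tested under each), 1 point per blastocyst pool and a bar at the group mean, blue IVF, red scNT; right, position of each blastocyst pool between IVF morulae (0) and IVF blastocyst-derived cells (1). Only the oocyte-high genes separate the 2 groups without overlap, and on the position scale the groups overlap. For the fibroblast-high genes the overlap is narrow, through scNT pool 1 alone.

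The higher genes were often above anything seen in the fertilized line. For 232 of the 319 (72.7%) the scNT blastocyst mean exceeded the mean of oocytes and of every IVF group, beside 21.1% of all genes tested. Part of this follows from the call itself, which requires a level above IVF blastocysts. Of the 232, 34 (14.7%) had a fibroblast mean above the scNT mean, beside 13.7% of all genes whose scNT blastocyst mean was above those groups. The scNT morulae were also above all those groups for 84 of the 232 (36.2%, beside 36.7%), so both shares lay near the background. The scNT derived cells were above them for 75 (32.3%, beside 15.6%). For 160 of the 431 lower genes (37.1%) the scNT blastocyst mean was below oocytes and every IVF group, beside 14.4% of all genes.

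Morulae, which share no library with the blastocysts, showed the same direction for most of these genes. Of the 319 higher genes 290 were tested in morulae, 239 had a positive difference (82.4%, beside 56.5% of the 12136 genes tested at both stages), and the median was 0.63 beside 0.10. Of the 431 lower genes 423 were tested, 327 had a negative difference, and the median was -0.53. Called in morulae in the same direction were 113 of the 290 (39.0%, beside 8.15% of all genes tested at both stages and 7.37% of the 13590 tested in morulae) and 133 of the 423 (31.4%, beside 10.2% and 11.3%). In the opposite direction were 6 and 1. Across all 12136 genes the differences at the 2 stages had a Pearson correlation of 0.41 (Spearman 0.36).

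The medians in morulae stayed between 0.49 and 0.86 for the higher genes and between -0.67 and -0.41 for the lower genes with any 1 library left out. The counts of calls did not: without IVF morula pool 2, 19 and 7 genes were called at both stages. Without IVF morula pools 3 and 4 there were 70 and 55 higher genes and 61 and 53 lower genes, and without pool 1 there were 79 lower genes. Leaving out blastocyst pools gave 56, 60 and 191 higher genes without IVF pools 2, 3 and 4, and 70, 63 and 60 without scNT pools 1, 3 and 4. The lower genes numbered 58 and 64 without IVF pools 2 and 3, and 71, 88 and 78 without scNT pools 1, 3 and 4.

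In the cells derived from blastocysts the differences of these genes were small in the median. These cells too share no library with the blastocysts. Of the higher genes 277 were tested there, 193 had a positive difference (69.7%, beside 50.5% of the 11232 genes tested in both), the median was 0.13, and 22 were called higher (7.94%, beside 0.605% of those genes and 0.638% of the 12390 tested in derived cells). Of the lower genes 341 were tested, 201 had a negative difference, the median was -0.093, and 13 were called lower (3.81%, beside 0.605% and 0.702%). The 13 became 8 without IVF blastocyst pool 2, 5, 7 and 7 without IVF derived cell libraries 1, 2 and 3, and 6 without scNT derived cell library 4. The Pearson correlation across the 11232 genes was 0.25 (Spearman 0.16).

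**Figure D5:**
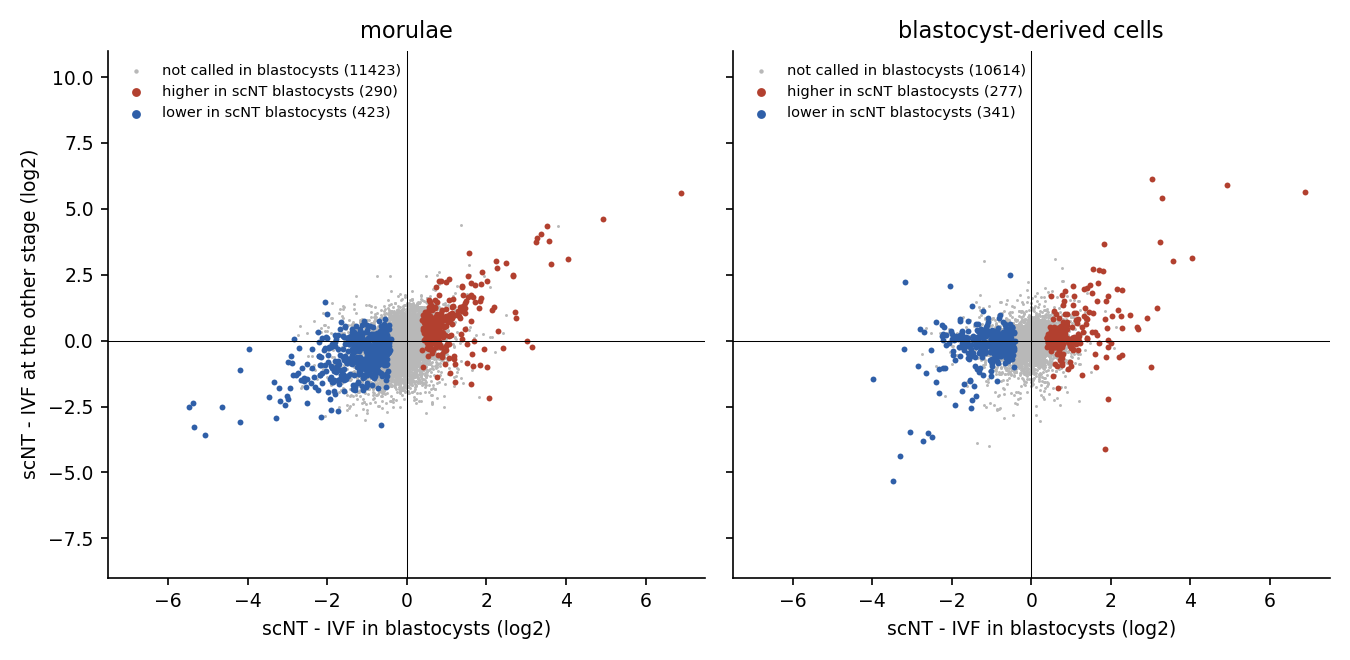
Log2 difference scNT minus IVF in blastocysts (x axis) against the same difference in morulae (left) and in blastocyst-derived cells (right), 1 point per gene tested at both stages; red, genes called higher in scNT blastocysts, blue, called lower, grey, not called. In morulae 239 of the 290 red points lie above 0 and 327 of the 423 blue points below it, and in derived cells most points lie near 0, with a few red points above 5.

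Some genes were called in the same direction at all 3 stages. Of 264 higher genes tested in each, 17 were called higher in morulae, blastocysts and derived cells, with median log2 differences of 2.13, 1.87 and 2.01. Of the 17, 15 had a mean of 10 or more in fibroblasts, near the 87.2% of all genes tested, and 7 in oocytes, beside 85.1% of all genes tested. Among the 319 higher genes, which include the 17, these shares were 79.6% in fibroblasts and 71.2% in oocytes. Of 340 lower genes tested in each, 5 were called lower throughout, with medians of -1.42, -2.59 and -3.47. The 17 and the 5 rest on the morula calls, and no range over omitted libraries is given for them. With the replicate number as a block in the fit, 0 higher and 0 lower genes were called in both blastocysts and morulae. Without IVF morula pool 2 there were 19 and 7. Called in blastocysts alone were 154 of the 264 and 226 of the 340. The matching shares over all genes tested at the 3 stages were not computed, so these counts are not read as many or few.

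Both named higher genes belong to the group of 17. ENSBTAG00000039787 had differences of 5.61 in morulae (SE 0.60, limma adjusted p = 0.00708) and 5.63 in derived cells (SE 0.85, limma adjusted p = 0.0172). The call in derived cells was lost without IVF derived cell library 2 or 3 (adjusted p = 0.0623 and 0.0503). ENSBTAG00000007296 had differences of 4.60 in morulae (SE 0.83, limma adjusted p = 0.0140) and 5.90 in derived cells (SE 0.42, limma adjusted p = 5.47e-05). The morula call was lost without IVF morula pool 2 (adjusted p = 0.0552).

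The 2 oocyte transcripts did not pass the filter in derived cells. In morulae ENSBTAG00000001219 was at -2.37 (SE 0.59, limma adjusted p = 0.0335), a call lost without any 1 of the 4 IVF morula pools or scNT pool 2, with adjusted p from 0.0636 to 0.0879, and without a filter on low values (0.0517). ENSBTAG00000048049 was at -2.53 in morulae (SE 0.77, limma adjusted p = 0.0552), and passed the threshold without scNT morula pool 3 or 4 (adjusted p = 0.0295 and 0.00859), with a pseudocount of 5 (0.0409), with a filter of 50 (0.0490), with edgeR (0.0483) and with DESeq2 (0.00462).

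Whether the size of a difference changed between stages was tested with an interaction term. Between blastocysts and derived cells 208 of 13896 genes changed (1.5%), 93 upward (0.669%) and 115 downward (0.828%). Among the higher genes 48 had a larger difference in blastocysts than in derived cells and 0 a smaller one, and among the lower genes 67 had a more negative difference and 0 a less negative one. These tests use the same blastocyst libraries that chose the genes, so the directions follow in part from the choice. For ENSBTAG00000048049 the difference in blastocysts was lower than that in derived cells by a log2 value of -4.74 (SE 0.73, limma adjusted p = 0.00372), and for ENSBTAG00000001219 by -5.16 (SE 0.82, limma adjusted p = 0.00372). With edgeR the adjusted p was 0.937 and 0.453, and with DESeq2 0.230 and 0.106, so these 2 calls rest on the limma fit; the derived cells hold few reads of either gene.

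Between blastocysts and morulae 237 of 14439 genes changed (1.64%), 142 upward (0.983%) and 95 downward (0.658%). Of the higher genes 21 had a larger and 3 a smaller difference in blastocysts, and of the lower genes 31 had a more negative one. The blastocyst libraries that chose the genes enter this test too, so these directions also follow in part from the choice. The 237 rested on single libraries: the count was 29 and 117 without IVF morula pools 2 and 4, 569 without scNT morula pool 3, 58, 139 and 101 without IVF blastocyst pools 2, 3 and 4, and 42, 357, 81 and 41 without scNT blastocyst pools 1 to 4. None of the 4 named genes passed this test with limma on all libraries, where the smallest adjusted p was 0.0738, for ENSBTAG00000001219 at -3.00 (SE 0.85). This gene passed with DESeq2 (adjusted p = 0.0117) and with limma without scNT morula pool 4 (0.0255) or scNT blastocyst pool 3 (0.0272). ENSBTAG00000048049, at -2.95 (SE 0.86, limma adjusted p = 0.0798), passed with edgeR (0.0489), with DESeq2 (0.00509) and with limma without scNT morula pool 4 (0.00612).

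Blastocyst libraries held 4608099 to 8402703 reads assigned to genes, with IVF pools at 4608099 to 7062383 and scNT pools at 6340918 to 8402703. Correlations of log2 levels had a median of 0.958 within scNT, 0.966 within IVF and 0.945 between them. The first principal component held 34.3% of the variance and separated the groups, with scNT pools from 13.4 to 43.7 and IVF pools from -38.4 to -14.8. The SD between pools had a median over genes of 0.238 in scNT and 0.266 in IVF.

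Thinned to 4608099 reads each, scNT blastocysts had 12231 ± 267 genes with 5 or more reads and IVF blastocysts 12793 ± 199 (SD, n = 4 each), without overlap between the groups. The exact two-sided permutation test gave p = 0.0286, the smallest that 4 against 4 allows, and 0.114 after adjustment over the 4 library measures tested. The 10 most abundant genes took 25.3 ± 4.21% of the normalized total in scNT and 22.1 ± 2.95% in IVF (exact permutation p = 0.286, adjusted 0.381). The normalized total was 10605648 ± 186561 and 9553128 ± 628825 (exact permutation p = 0.0571, adjusted 0.114). The part of these measures in the results above was not tested beyond the scalings given.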

How the data were processed

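The large RNA fraction was sequenced with a low-input kit and several rounds of PCR, per the labels' protocols. The authors deposited 1 table of gene values to 1 decimal, a signal in read counts divided by 1 scaling factor per library; the submitters' processing notes name FastQC, MultiQC, STAR, DESeq2 and build UMD3.1. The sources used here give no version, annotation, counter or strand setting, so overlapping or near-identical genes may share reads. In the blastocyst libraries 99.98% or more of the values were whole multiples of 1 step, within a rounding tolerance of 0.05, which gave the read counts. The labels name both 3 and 4 pools per stage, and 4 libraries of each kind were analysed. Within groups the smallest chi-square per degree of freedom between libraries was 6.67 over 12 pairs, for IVF libraries 1 and 2. No library was thus counted as a resequenced copy of another. This cannot tell separately amplified libraries of the same pool from libraries of different pools.

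Values were tested as log2(value + 1) with limma 3.58.1 (trend and robust, R 4.3.3), two-sided, with Benjamini-Hochberg adjustment over all genes tested at a threshold of 0.05. The filter was 10 or more in at least 4 libraries, or 3 where morulae were used. edgeR 4.0.16 and DESeq2 1.42.0 on the recovered reads, other scalings, pseudocounts and filters, a replicate block and leaving out each library were alternatives (without the filter, genes above 0 in at least 2 libraries were tested); equal totals without the 10 most abundant genes was chosen after seeing the data. The scripts were tested on simulated data. Identifiers were named by rule: adjusted p under the threshold, a mean of at least 50 in the higher group, no overlap, and the 2 largest differences per direction. The planned 28 gene lists and marker check could not be used, since 0 of 20526 identifiers matched a symbol. The members, sets and lists were chosen with earlier results of these data known. Intervals are 95% and, like the limit of 3 reads, cover counting error only, since PCR reads without molecular identifiers are not independent molecules.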

Additional observations from a re-analysis of the deposited data

Results flagged for a closer look

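Of 28 groups of 4 blastocyst pools examined, for the named genes, library measures and gene sets, 3 held a value far from the other 3. All of these values rest on 3 reads or fewer, so they are not set against a chance rate. IVF blastocyst pool 3 had 1.3 normalized counts (1 read) of ENSBTAG00000039787 where the other IVF pools had 0. The scNT blastocyst pool 1 had 0.0 of ENSBTAG00000048049 where the others had 1.3 to 1.5, a difference of 1 read. The scNT blastocyst pool 3 had 4.6 of ENSBTAG00000001219 (3 reads) where the others had 0.

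The difference between scNT and IVF changed between blastocysts and derived cells for 208 genes, and between blastocysts and morulae for 237, by the limma interaction test. Of the named genes, ENSBTAG00000048049 (-4.74) and ENSBTAG00000001219 (-5.16) had a more negative log2 difference in blastocysts than in derived cells, where both kinds of cells read 2.8 or less. Both genes were chosen for their decrease in the same blastocyst libraries, so the sign follows from the choice. Neither change was called with edgeR or DESeq2.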

How the results depend on the processing

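All 4 named genes kept their direction and their call in blastocysts under every alternative in which they were tested. ENSBTAG00000048049 and ENSBTAG00000001219 were not tested with a filter of 50 in at least 4 libraries, since both read 48.8 in IVF pool 4. The total called in blastocysts was 311 to 853 with 1 library left out (129 to 461 higher, 182 to 483 lower) and 312 with all 12 groups in 1 fit (105 higher, 207 lower). Equal library totals gave 175 higher and 929 lower, leaving the 10 most abundant genes out of the totals 211 and 672, and DESeq2 558 and 563. Whether the replicate numbers pair the blastocyst pools could not be settled. Correlations between deviations of same-numbered pools were 0.33, 0.22, 0.06 and -0.11, and 4 of 8 pools correlated best with their own number. With the replicate number as a block 821 genes were called in blastocysts, beside 750 without it. The block left 2 genes in morulae, where 3 numbers are shared, so that 0 higher and 0 lower genes were called at both stages, and gave 302 in derived cells. With the block the morula calls of ENSBTAG00000039787, ENSBTAG00000007296 and ENSBTAG00000001219 were lost (adjusted p = 0.0635, 0.0708 and 0.0731). Same-numbered pools had correlations from -0.14 to 0.098 in morulae and from 0.016 to 0.43 in derived cells.

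Derived cells had 77 to 131 calls and morulae 116 to 2671 with 1 library left out, and DESeq2 called 455 in derived cells. Genes called in both blastocysts and morulae numbered 56 higher and 288 lower with equal totals, 65 and 213 without the 10 most abundant genes in the totals, 41 and 76 with 12 groups, and 221 higher with DESeq2, with ranges of 19 to 191 and 7 to 155 over omitted libraries. Those shared with derived cells were 45 higher and 34 lower with DESeq2, 6 lower with a filter of 50 and 8 lower with 12 groups, with ranges of 16 to 25 and 5 to 12. The change between blastocysts and derived cells was called for 346 genes with equal totals, 402 with DESeq2 and 93 to 215 with a library left out. Between blastocysts and morulae it was called for 375 with a pseudocount of 5, 384 with a filter of 50, 104 without the 10 most abundant genes in the totals, 765 with DESeq2 and 29 to 569 with a library left out.

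With 12 groups, the median in morulae of the lower genes was -0.76 and the median in derived cells of the higher genes 0.48, which was 0.25 with equal totals; with a library left out the medians were 0.49 to 0.86 and -0.67 to -0.41 in morulae and 0.077 to 0.26 and -0.19 to -0.038 in derived cells. Fibroblast-high genes had a median of -0.22 with equal totals. The blastocyst minus morula difference of ENSBTAG00000007296, 0.33 and not called, was -0.015 with a pseudocount of 0.5 and between -0.45 and 0.63 with a library left out. The cause of these changes was not tested. At 4608099 to 8402703 reads a library, 3 reads correspond to 3.81 to 6.12 normalized counts, so levels under these cannot be told from absence.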
